A study of Homo sapiens with 4 samples.

Results

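The S100 and annexin genes described here were 5 members of each family: S100A4, S100A6, S100A10, S100A11 and S100A16, and ANXA1, ANXA2, ANXA5, ANXA6 and ANXA11. A peak was taken as theirs when the deposited list gave the NCBI Gene ID of the member, and each position was counted once. They are 10 of the 13328 genes with a peak in either list, with 7 peaks among the 9107 of HNRNPC and 31 among the 63507 of PABPC4. MDA-MB-231 is an established human breast cancer line. The cells of all samples were grown to about the same confluence and irradiated with 400 mJ per square centimetre of ultraviolet light at 254 nm, which bonds proteins to the RNA they touch. HNRNPC, a mostly nuclear RNA-binding protein, was precipitated in 2 samples (CLIP), and PABPC4, a poly(A)-binding protein, in 2 samples by PAPERCLIP, a variant that primes cDNA synthesis from the poly(A) tail and thereby locates the 3′ ends of mRNAs. The labels and methods give irCLIP for HNRNPC, whereas the name of the list gives HITS-CLIP, and this was not settled here. The samples of a protein were pooled before peaks were called, so each protein had 1 list and the spread between samples is unknown for every value given. Every sample was of the same unperturbed line, and no control precipitation was used here.

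S100 proteins are small EF-hand proteins that mostly bind calcium and act as dimers, and annexins are proteins that bind acidic phospholipids of membranes in a calcium-dependent manner. Both families meet in defined complexes: S100A10 binds ANXA2 at the plasma membrane, S100A11 binds ANXA1, and S100A6 binds several annexins. PABPC4 binds poly(A) tails, which are added a short way downstream of a poly(A) signal, most often AAUAAA or its variant AUUAAA. HNRNPC binds U-rich tracts of pre-mRNA, mostly in introns.

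The bases at or next to the 3′ end of the tallest PABPC4 peak of each gene are shown here, since poly(A) signals were sought there, in DNA letters, 5′ to 3′ on the transcript's strand, with the poly(A) signal in capitals. All are GRCh38 (hg38). The 30 bases start 8 bases before the signal. The tallest peaks of ANXA2, ANXA6 and ANXA11 had neither signal in their last 40 nt. For ANXA2 the line shows the AATAAA that began 4 nt past the last base of the peak, so most of it lies outside the peak, and for ANXA6 and ANXA11 it gives the last 30 bases of the peak.
S100A4 (chr1:153543621-153543650, minus strand): gcaagttcAATAAAgattcttggaagtttt
S100A6 (chr1:153534602-153534631, minus strand): aattgtacAATAAAttttttttggtcaaat
S100A10 (chr1:151982918-151982947, minus strand): cctcaataAATAAAgttcttttttagttcc
S100A11 (chr1:152032516-152032545, minus strand): ccaatagtAATAAAgcaatgtcactttttt
S100A16 (chr1:153606890-153606919, minus strand): ggatgctcATTAAAaccttcccactccttg
ANXA1 (chr9:73170363-73170392, plus strand): tagctgaaAATAAAatgacgtcacaagaca
ANXA2 (chr15:60347336-60347365, minus strand): aacagatgAATAAActgaatttgtacttta
ANXA5 (chr4:121667999-121668028, minus strand): taatgaaaAATAAAcatttctgtccccctg
ANXA6 (chr5:151101107-151101136, minus strand): tccaaaaacatcctgaacctctgtctgtaa
ANXA11 (chr10:80154073-80154102, minus strand): ttacctggcattgtagtgcattccctatag

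All 10 members had a PABPC4 peak, whereas 59.2% of the 20056 protein-coding genes had one. The members were chosen with earlier results of these data known. Their shares, heights and ranks against all genes are therefore a description and not a test. A peak centred in a 3′ UTR was present in 9 members, all but S100A6, against 48.8% of genes. Peak height counts the unique tags, pooled over samples, that cover the summit. The tallest peak of each member was 6673 tags high in S100A6, 1720 in S100A10, 1711 in ANXA5, 1345 in S100A4, 1323 in ANXA1, 801 in ANXA2, 683 in S100A16, 435 in S100A11, 219 in ANXA6 and 126 in ANXA11. Exact Poisson intervals, which cover counting error only, overlapped for S100A10 and ANXA5 (1640 to 1803 and 1631 to 1794 tags) and for S100A4 and ANXA1 (1274 to 1419 and 1253 to 1396 tags), and for no other neighbours in that order. Among the 11865 protein-coding genes with a PABPC4 peak, the median tallest peak was 82 tags high, and all 10 members lay above it, with a median of 1062 tags. S100A6 ranked 4, below VIM (10197 tags), GAPDH (7950 tags) and HMGA1 (7753 tags) and above ACTN4 (6570 tags). ANXA11 held the lowest rank of the members, 3529. The height of a peak rises with the amount of the RNA as well as with its binding. RNA levels were not analysed here, so abundance and binding cannot be told apart.

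**Figure D1:**
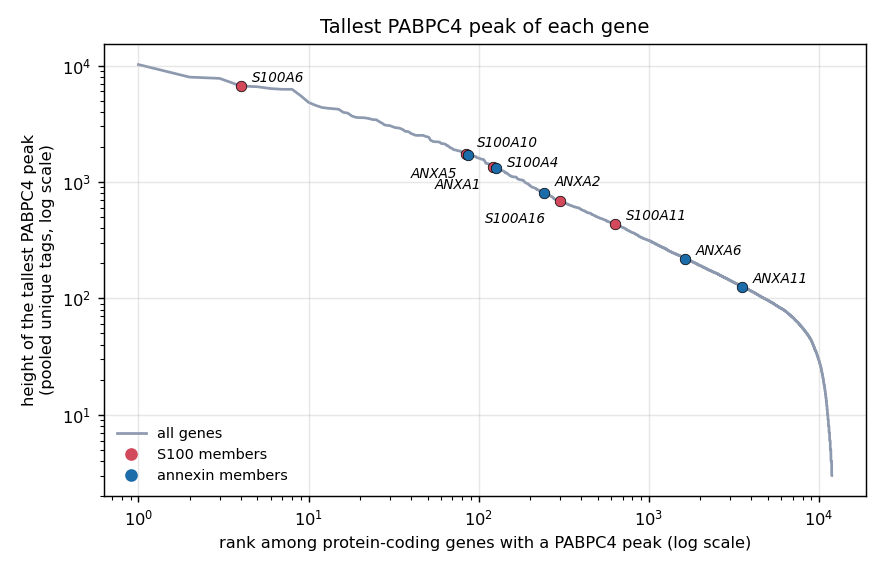
Height of the tallest PABPC4 peak (pooled unique tags, log scale) of each of 11865 protein-coding genes against its rank (log scale), with the S100 members in red and the annexin members in blue. The members run from S100A6 at rank 4 to ANXA11 at rank 3529, and S100A10 and ANXA5 lie almost on each other.

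The S100 members each had their PABPC4 signal in essentially 1 place. S100A4, a binding partner of non-muscle myosin linked to metastasis, S100A6 (calcyclin), S100A10 (p11) and S100A16, a widely expressed S100 protein, had a single PABPC4 peak each, where 24.3% of genes with a peak had exactly 1. S100A11 had 2, of 435 tags at the 3′ end and of 24 tags over 11 nt of coding sequence, so that 94.8% of its summed height (95% Wilson interval 92.3 to 96.5) lay in the taller. No S100 member had a PABPC4 peak in an intron. All 5 genes lie on chromosome 1 and each has 3 exons in its canonical transcript, with introns that total between 959 nt (S100A6) and 10274 nt (S100A10).

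The S100A6 peak covered 235 nt (chr1:153534593-153534827), more than the 100 nt of the gene's 3′ UTR. Its centre therefore fell in coding sequence, and it was counted as coding by centre and as 3′ UTR by overlap. It ended 6 nt past the annotated 3′ end. The height expected by chance in S100A6 according to the list was 250.50 tags, the highest of the 10 members, against 15.25 in S100A4 and 10.39 in S100A10. Relative to that expected height, the S100A6 peak was 26.6 times as high, the lowest ratio among the tallest peaks of the 10 members. The highest was 842, in ANXA6, so the order by raw height is not the order by this ratio. S100A6 is also the shortest of the 10 genes (1393 nt) and ANXA6 the longest (57074 nt). How far gene length sets the ratio was not tested, so it was not read as strength of binding.

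The annexin members had longer introns (17128 to 54185 nt in total) and more scattered PABPC4 peaks. ANXA1, a phospholipid-binding protein induced by glucocorticoids, had 3 peaks, with 86.6% of the summed height (84.8 to 88.2) in the peak of 1323 tags that ended on the last annotated base. Its others were 135 tags high in the 3′ UTR and 70 tags high in an exon of a non-coding transcript inside intron 9. ANXA5, which binds exposed phosphatidylserine, had 98.5% (97.8 to 99) in 1 peak and another of 26 tags in intron 3. ANXA6, an annexin with a duplicated core, had 77.4% (72.2 to 81.9) in its 3′ UTR peak and another of 64 tags in intron 20. ANXA2 and ANXA11 had the lowest shares, 55.3% (52.7 to 57.8) and 30.1% (25.9 to 34.6). Over all genes with a PABPC4 peak the median share was 56.0%, and over the 10 members it was 96.6%.

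**Figure D2:**
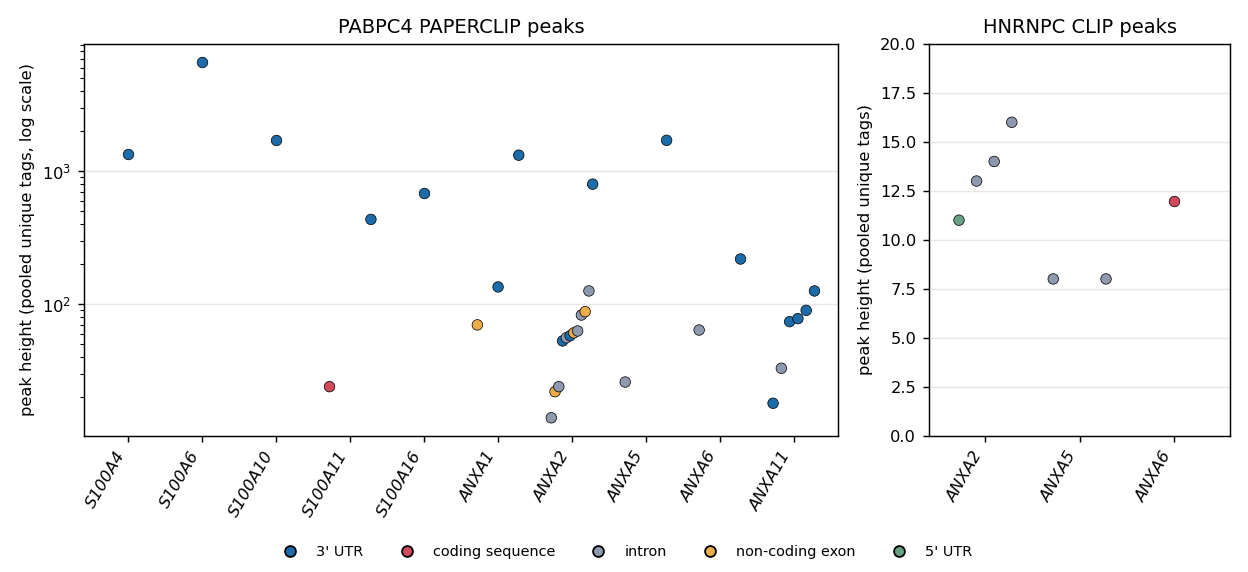
Height of every peak of the members in pooled unique tags, PABPC4 on a log scale at left and HNRNPC on a linear scale at right, with 1 point per peak, coloured by the annotation it overlaps. The tallest PABPC4 peak of each gene overlapped a 3′ UTR, no intron peak was taller than 126 tags, and the HNRNPC peaks lay between 8 and 16 tags.

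The tallest PABPC4 peak overlapped a 3′ UTR in all 10 members. It was centred in one in all but S100A6, against 57.8% of genes with a PABPC4 peak. It held a poly(A) signal in its last 40 nt in 7 members, where 39.4% of all genes with a PABPC4 peak had one in that place. That share includes genes whose tallest peak lies outside a 3′ UTR, and over all 3′ UTR peaks it was 48.6%. In those 7, the signal began 22 nt (ANXA1) to 30 nt (S100A6, S100A11 and ANXA5) before the last base of the peak. It was AATAAA in 6 and ATTAAA in S100A16. The tallest peak ended within 50 nt of an annotated 3′ end of its own gene in 9 members, against 42.7% of genes. The number of annotated ends differed, from 1 in S100A11 to 15 in ANXA2, and a gene with more ends has more chances of a near one. When the end of the canonical transcript alone was counted, 7 members remained. ANXA2 and ANXA6 were lost, since their peaks ended 210 nt and 401 nt before it, and ANXA11 was outside by both measures.

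**Figure D3:**
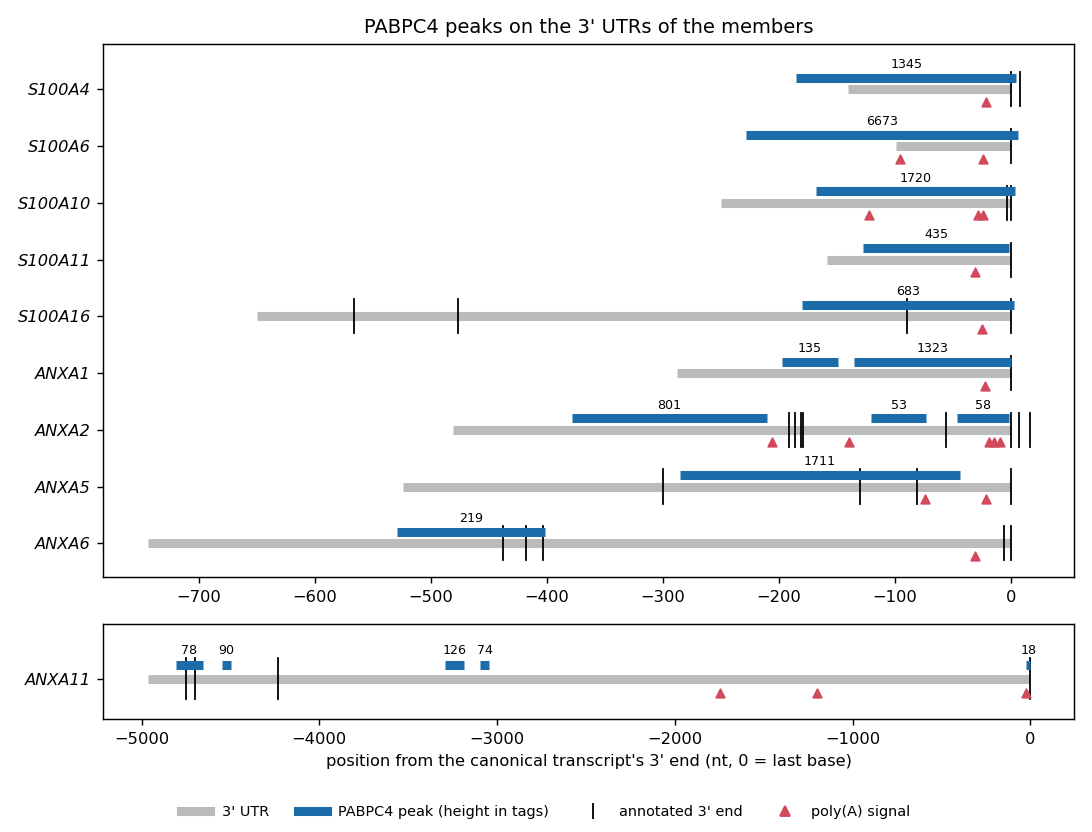
PABPC4 peaks (blue, with height in tags) on the 3′ UTRs (grey) of the 10 members, by position in nt from the last base of the canonical transcript, with annotated 3′ ends (black ticks) and poly(A) signals of the 3′ UTR (red triangles). ANXA11 has its own axis. In the S100 members and ANXA1 the tallest peak reached position 0 within 6 nt, and in ANXA2, ANXA6 and ANXA11 it lay upstream.

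ANXA2, the annexin that pairs with S100A10, had 3 peaks in its 482 nt 3′ UTR, of 801, 53 and 58 tags in the order of the transcript. The tallest (chr15:60347361-60347529) held 87.8% (85.5 to 89.8) of the 3′ UTR height and ended 19 nt before an annotated end. It held neither AATAAA nor ATTAAA in its last 40 nt, but the variant hexamer CATAAA, not counted as a signal here, began 8 nt before its last base. An AATAAA, printed above, began 4 nt past its last base. The peak of 58 tags ended 1 nt before the canonical end with AATAAA 8 nt before its last base. This was the last of the overlapping poly(A) signals that began at positions -19, -14 and -9 from the canonical end. The 3′ UTR also has near-identical copies. Of its 44 windows of 50 nt, 18 (40.9%) matched another place in the genome with at most 2 mismatches, ANXA2P2 among them. The last 50 nt of the 801-tag peak had 2 such copies. ANXA2P2, a processed pseudogene of ANXA2, carried a PABPC4 peak of 17 tags, and 12 other pseudogenes of the members had none. How reads were shared between ANXA2 and its copies was not tested, and heights in this 3′ UTR are uncertain to that extent. Windows with such copies made up 2 of 11 in S100A11 and 36 of 492 in ANXA11, and 0 in the other 7 members.

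ANXA11, which binds the calcium sensor PDCD6 and carries RNA granules on lysosomes, had the longest 3′ UTR, 4967 nt, and the flattest profile. Its 5 peaks there were 78, 90, 126, 74 and 18 tags high in the order of the transcript. The tallest ended 1051 nt from the nearest annotated end of the gene and had neither signal. Of the 3 poly(A) signals in the 3′ UTR, 1 had a peak end within 50 nt, and this was the peak of 18 tags, which ended 1 nt before the canonical end with AATAAA 21 nt before its last base. The 3′ UTR of ANXA6 was 745 nt long with 1 signal, near its canonical end, and no peak ended within 50 nt of that signal. Its 219-tag peak ended 2 nt past an annotated end that lies upstream.

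In all, 16 of the 31 PABPC4 peaks (51.6%, 34.8 to 68.0) had their centre in a 3′ UTR, against 29.8% of the list. By the same measure 9 were intronic (29%, 16.1 to 46.6), against 60.2% of the list. Another 4 (12.9%) were in non-coding exons, against 3.87% of the list, a share that includes exons of non-coding genes. All 4 lay inside introns of the canonical transcript and were not counted as intronic. They were 3 in ANXA2, of 22, 61 and 88 tags, and 1 in ANXA1, of 70 tags. There were 3 members with 2 or more 3′ UTR peaks (ANXA1, ANXA2 and ANXA11), where 51.6% of genes with a 3′ UTR peak had as many. Of the 16 peaks, 8 held a poly(A) signal in their last 40 nt (50%), close to the 48.6% of all 3′ UTR peaks. The intron peaks were 14 to 126 tags high and made up 3% of the summed height of 16296 tags. Of these 9, 7 lay within 50 nt upstream of an A-rich stretch, meaning a run of 6 A or 7 A among 10 bases, a share of 77.8% (45.3 to 93.7) against 71.2% of all intron peaks. An A-rich stretch in the RNA can itself be copied by an oligo(dT) primer, and its part in these peaks was not tested. Across the 10 genes, the number of intron peaks and intron length had a Spearman's rho of 0.846 (n = 10, a description of genes that share 1 list). The S100 genes and ANXA1, which had the shortest introns in total, had 0. Of the 9, 6 were in ANXA2 (49282 nt), the tallest at 126 tags in intron 3. ANXA5 (27397 nt), ANXA11 (47915 nt) and ANXA6 (54185 nt) had 1 each, so the count did not rise steadily with length.

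For the HNRNPC peaks, U tracts, to which this protein is known to bind, were sought in the peak and the 50 nt upstream, and GUGUCA, a hexamer in the last 20 nt of 23.3% of all HNRNPC peaks, at the 3′ end. The lines show examples of peaks that had them, but 5 of the 7 member peaks held neither UUUUU within the peak nor GUGUCA near its end, and the ANXA6 peak and the 14-tag ANXA2 peak held neither with the upstream bases added. The longest run of T in the peak or the 50 bases before it is in capitals for the first pair of peaks, and GTGTCA for the last pair, all hg38 and minus strand.
ANXA2, peak of 11 tags (chr15:60394706-60394735): cctgaagctgTTTTTTTTTTTctttttttt
ANXA5, second peak of 8 tags along the transcript (chr4:121690747-121690776): ttagtaggtgagaTTTTTaagatgcttttc
ANXA2, HNRNPC peak of 16 tags (chr15:60378175-60378204): ttttaacatccattcaccttaaatGTGTCA
ANXA2, PABPC4 peak of 801 tags (chr15:60347361-60347390): tttgcctcctgtgtactGTGTCAtaaacag

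HNRNPC peaks were listed in 3 of the 10 members, ANXA2 (4 peaks), ANXA5 (2) and ANXA6 (1), against 19.0% of protein-coding genes and 31.4% of genes with a PABPC4 peak. No S100 member and neither ANXA1 nor ANXA11 had one. Gene length moved with this: among genes with a PABPC4 peak, 14.3% of those up to 20000 nt and 39.6% of longer ones had an HNRNPC peak, and the 6 members up to 20000 nt (the S100 genes and ANXA1) had none, while 3 of the 4 longer members did. Over all protein-coding genes these shares were 6.32% and 29.4%. No member had an HNRNPC peak in a 3′ UTR, where 1.98% of protein-coding genes had one. A gene without a listed peak was not shown to be unbound.

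The ANXA2 peaks were 13 tags high in intron 1, 11 tags in a 5′ UTR exon of an alternative transcript that also lies within intron 1 of the canonical one, 16 tags in intron 3 and 14 tags in intron 7. The pair in intron 1 lay next to each other (chr15:60394340-60394531 and chr15:60394572-60394698). The ANXA5 peaks were both 8 tags high and both in intron 2. The ANXA6 peak (chr5:151105293-151105412) was 12 tags high, with its centre in intron 23 and its edge in the adjoining coding exon. The exact Poisson intervals of all 7 overlapped, from 3.45 to 15.8 tags at the lowest to 9.15 to 26.0 tags at the highest. The list's median was 11 tags, and 5 of them were at or above it. The tallest, of 16 tags, was the only member peak at a height that 29.5% of all HNRNPC peaks reached. The authors' p-value was 0.001 or lower for 4, and was 0.0459 for both peaks of ANXA5 and 0.0643 for the 11-tag peak of ANXA2.

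**Figure D4:**
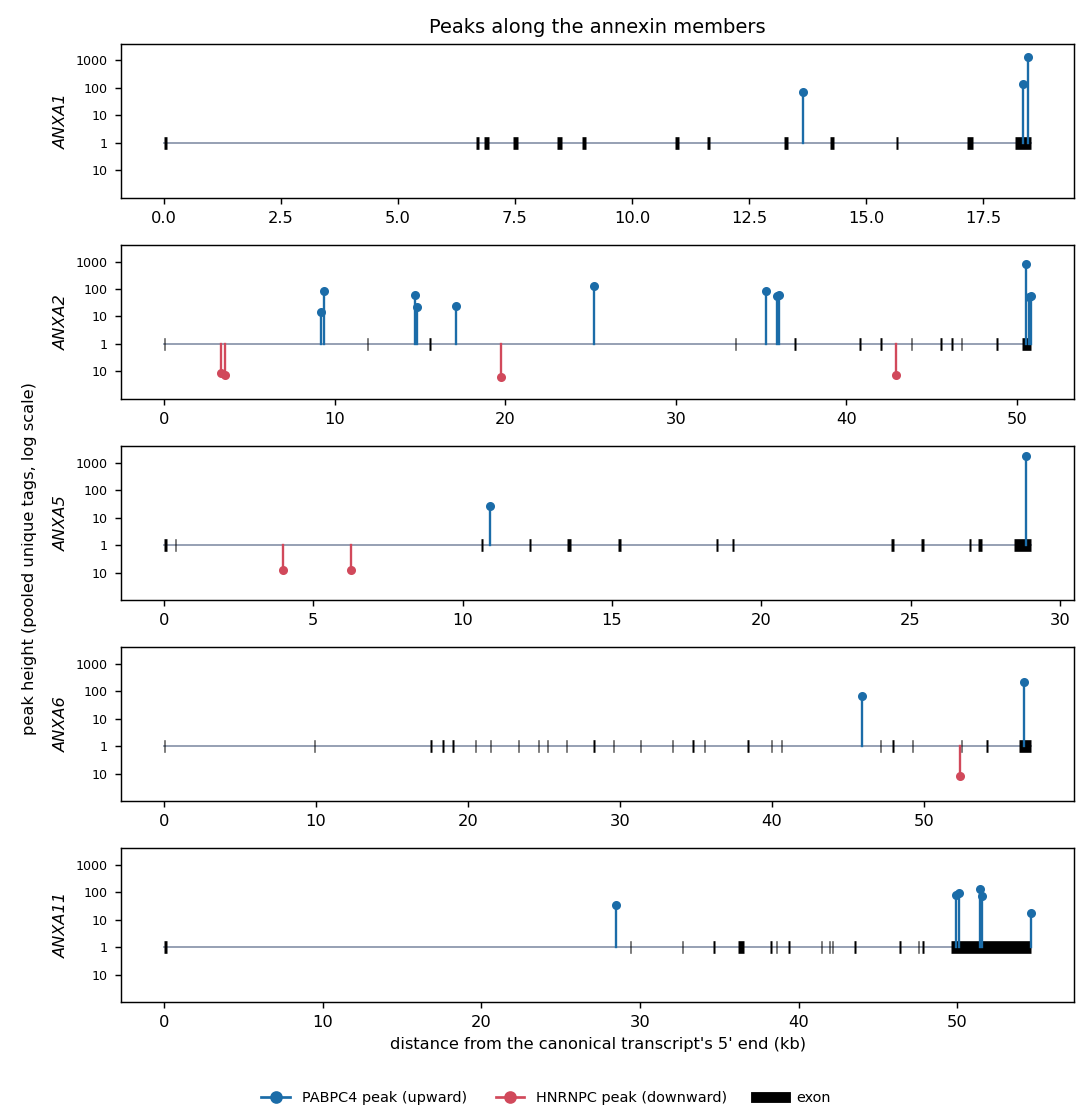
Peaks along the canonical transcripts of the 5 annexin members, by distance from the 5′ end in kb, with exons as black boxes, PABPC4 peaks drawn upward and HNRNPC peaks downward, each to its height in pooled unique tags on a log scale that starts at 1. HNRNPC peaks lay in the bodies of ANXA2, ANXA5 and ANXA6, and the tallest PABPC4 peak lay in the last exon of each gene.

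UUUUU was present in 1 of the 7 HNRNPC peaks (14.3%, 2.57 to 51.3), the second ANXA5 peak, against 13.3% of all HNRNPC peaks. With the 50 nt upstream added, 4 of 7 held one (57.1%), against 39.7%, among them the run of 11 U before the 11-tag ANXA2 peak printed above. Several of these sequences occur often in the genome. For copies, only the central 50 nt of each HNRNPC peak were compared with the genome. In the 13-tag ANXA2 peak they had 118408 similar places, that is at least 80% identity over at least 40 nt. In the 11-tag peak they had 19762 and in the first ANXA5 peak 229733, as is usual for dispersed repeats. In the 16-tag and 14-tag peaks of ANXA2 they had 0, and the rest of each peak was not compared. GUGUCA was found in the last 20 nt of 2 of the 7 HNRNPC peaks, the 16-tag peak of ANXA2 and the second peak of ANXA5. The same hexamer lay near the end of the tallest PABPC4 peak of ANXA2, while 0.222% of all PABPC4 peaks had it there. Its part in these peaks was not tested.

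Measured from each of the 7 HNRNPC peaks to the closest PABPC4 peak of the same gene, the shortest distance was 2548 nt, in ANXA2, and the longest 6878 nt, in ANXA5, with a median of 5566 nt. Over the 8982 HNRNPC peaks of genes that also had a PABPC4 peak, the median was 3838 nt (quartiles 1512 and 9184 nt), and all 7 member distances lay between those quartiles.

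Among 23 other S100 and annexin genes, 10 had a PABPC4 peak, against 59.2% of protein-coding genes, and 2 an HNRNPC peak, against 19.0%. The tallest PABPC4 peaks were 655 tags in S100A2, 511 in S100A13, 297 in S100A1, 201 in ANXA7 and 195 in ANXA3. HNRNPC peaks were 26 tags high in ANXA3 and 23 in S100A2. No peak of either protein was listed for the myeloid calprotectin genes S100A8 and S100A9 or for S100A7, S100A12, S100B or S100P. Of the 23, 13 had no PABPC4 peak, and the 10 with one had a median tallest height of 167 tags, against 1062 for the members. The tallest peaks of ANXA7, ANXA4 and S100Z were intronic, whereas those of all 10 members overlapped a 3′ UTR. The members were chosen with earlier results of these data known, so this difference may reflect the choice and was not tested. S100PBP, which is not an S100 gene but encodes a protein that binds S100P, had a tallest PABPC4 peak of 56 tags and an HNRNPC peak of 7 tags.

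Of 15 genes chosen as partners of S100 proteins and annexins, 14 had a PABPC4 peak, against 59.2% of protein-coding genes. An HNRNPC peak was present in 8 (53.3%), against 19.0% of protein-coding genes and 31.4% of those with a PABPC4 peak. Among genes with a PABPC4 peak that were over 20000 nt long, the share was 39.6%. AGER, a receptor for several S100 proteins, had neither. The tallest PABPC4 peaks were in AHNAK, a scaffold bound by the S100A10 and ANXA2 complex (1674 tags), CAPN2 (894 tags) and CAPNS1 (572 tags), subunits of the calpain proteases, and MYH9, the heavy chain of the myosin that S100A4 binds (495 tags). MYH9 also had 9 HNRNPC peaks, the tallest 72 tags high. The partner list is a description of genes chosen for their biology, and no test was made on it.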

How the data were processed

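HNRNPC CLIP and PABPC4 PAPERCLIP peaks of MDA-MB-231 cells were analysed from 1 list per protein. The signal deposited for each peak is its height in pooled unique tags, with no scaling for depth. Peaks were called by the authors with the CLIP Tool Kit after pooling 2 samples. The submitters' processing notes name UMI-tools, cutadapt, BWA 0.7.17 and hg38. Read totals were not analysed here.

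Peak centres were assigned to GENCODE v44 features of the same strand, where 3′ UTRs took precedence over coding sequence, then 5′ UTRs, non-coding exons and introns. Poly(A) signals were AATAAA or ATTAAA in the last 40 nt, and A-rich stretches were sought 50 nt downstream. Copies were sought with BLAST+ 2.17.0 at an E-value limit of 1e-05. For each peak, 50 nt were compared: those around the centre for HNRNPC and the last ones for PABPC4. Shares carry 95% Wilson intervals for counting error only. Python 3.11.15, pandas 2.3.3, SciPy 1.17.1 and pysam 0.24.0 were used. The functions for features, poly(A) signals and A-rich stretches were checked on 400 simulated peaks, of which 400 were recovered. The simulated background held only C and G, so stray signals or A-rich stretches could not arise. U runs, GUGUCA, copies and distances were not checked in this way.

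All 10 members were named, with other family genes that hold a peak, the 4 partners with the tallest PABPC4 peak, and genes next in height to S100A6. The genes next in height to S100A10 and some site sequences are not reported here. Members and lists were chosen with earlier results of these data known. Alternatives covered p-value, height, gene assignment and window sizes. No test was made, since each protein had 1 pooled list.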

Additional observations from a re-analysis of the deposited data

How the results depend on the processing

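There were 11 counts and shares of the members recomputed under 53 alternatives in all, of which 48 stayed within 1.5 times the count or inside the interval of the share. The 5 others all concerned HNRNPC and rested on 7 peaks. Some of the 48 could not differ. Every member peak was already listed under a single gene ID, and every tallest PABPC4 peak already overlapped a 3′ UTR. Distances to ends already used the gene's own transcripts, and stricter limits could not add an HNRNPC peak in a 3′ UTR. Under a p-value limit of 0.001, there were 4 HNRNPC peaks in place of 7. The share of HNRNPC peaks with UUUUU, 14.3%, became 0% of 4 peaks with that p-value, 0% of 5 at or above the median height, 0% for a run of 6 and 57.1% with 50 nt upstream added, because 1 peak alone carried the run. Of the 53, 3 were chosen after seeing the data: the canonical end alone, a signal up to 30 nt past the peak, and peaks in 3′ UTRs alone. Heights, ranks, distances between peaks and GUGUCA counts were not recomputed. No paired analysis was possible because peaks were called on pooled tags, with 1 list per protein, and no sample could be left out for that reason. Heights of a few tags limit the HNRNPC values.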
